A study of Homo sapiens with 16 samples.

Results

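A set of 10 genes was described together because they encode the second signals that T cells and antigen presenting cells exchange. They are the T cell receptors CD28, ICOS, CTLA4, PDCD1 (PD-1) and BTLA, the ligands CD80, CD86, ICOSLG and CD274 (PD-L1), and CD83. The rule was the gene symbol alone, and all 10 symbols were found among the 27311 genes listed. The filter on low values kept 7 of them for testing, among 14398 genes in all. CTLA4, CD80 and BTLA did not pass it and are given as values only.

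A T cell that meets its antigen needs a second signal, which CD28 gives when it binds CD80 or CD86 on the other cell. CTLA4 competes with CD28 for those ligands and dampens the response, ICOS binds ICOSLG and sustains helper T cell responses, and PD-1 and BTLA are inhibitory receptors that bind PD-L1 and the TNF receptor family member HVEM. CD83 is a surface protein best known as a marker of mature dendritic cells, and activated lymphocytes also carry it. CD28, CTLA4 and ICOS lie next to each other on chromosome 2.

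RNA was measured in 16 libraries from 4 human immune cancer cell lines, with 2 untreated and 2 stimulated libraries per line. THP-1, a monocytic leukaemia line, carried dCas9-KRAB (a catalytically dead Cas9 fused to a repressor domain) in its treated and untreated libraries alike, and received 1 µg/ml bacterial lipopolysaccharide (LPS). The other 3 lines are labelled wild type: monocytic U937 received 200 ng/ml LPS, the T cell leukaemia line Jurkat received 5 µg/ml anti-CD3 with 100 ng/ml phorbol ester PMA, and the B cell lymphoma line BJAB received 10 µg/ml anti-IgM with 4 µg/ml anti-CD40. Each stimulation lasted 4 hours. Each line thus had its own stimulus, so a difference in response between lines cannot be told apart from a difference in agent or dose, and the genotype of THP-1 cannot be told apart from the line.

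Values are TPM, transcript abundances corrected for transcript length and scaled to a sum of 1000000 in each library, so that levels can be compared between genes within a library. Whole reads recovered from the steps of these values put depth between 4125221 and 8431295 reads per library. The 2 libraries of a group resembled each other closely in 6 groups (r = 0.984 to 0.991) and less so in stimulated U937 (r = 0.943) and stimulated BJAB (r = 0.939). Results in those groups are therefore also given without the first stimulated library where that ended a call or changed the value by over 1.5-fold. Line identity followed the labels: 10 T cell markers summed to 5460 to 7400 TPM in Jurkat and to at most 105 TPM elsewhere, and 10 B cell markers to 1420 to 5620 TPM in BJAB and at most 182 TPM elsewhere. The 10 monocytic markers summed to 5050 to 5410 TPM in THP-1 and 3650 to 4210 TPM in U937, where CD14 was listed at 0 in all 4 libraries, and to at most 126 TPM in the lymphoid lines.

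To set the levels beside the sequence before each gene, the stretches before their RefSeq start sites (250 bases, build GRCh38.p14) were searched on both strands for the NF-kB consensus and for AP-1 (TGANTCA), CRE (TGACGTCA), NFAT (GGAAA), the interferon-linked GAS (TTCNNNGAA) and EGR (GCGNGGGCG) motifs. All 10 genes matched the table, with 12 windows because CD83 and CD86 have 2 starts each. The NF-kB consensus was found in 3 of the 12 windows, belonging to CD83, PDCD1 and CD86, against 9.96% of 35116 windows of that length. Those stretches are shown because they hold the matches. In the results that follow CD83 and PDCD1 rose and CD86 fell, while CD28 and ICOSLG, which also rose in Jurkat, had no match. Capitals mark the NF-kB matches, some of which overlap each other.

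The PDCD1 stretch is chr2:241858909-241859144 (minus strand), shortened by the 14 bases that an annotated exon covers.
PDCD1: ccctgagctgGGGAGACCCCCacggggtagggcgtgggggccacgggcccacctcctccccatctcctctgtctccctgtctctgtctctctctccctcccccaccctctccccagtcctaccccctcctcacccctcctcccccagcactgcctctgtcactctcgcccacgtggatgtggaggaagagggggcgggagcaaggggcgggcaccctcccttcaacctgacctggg
The CD86 stretch lies before its second start, at chr3:122077534-122077783 (plus strand).
CD86: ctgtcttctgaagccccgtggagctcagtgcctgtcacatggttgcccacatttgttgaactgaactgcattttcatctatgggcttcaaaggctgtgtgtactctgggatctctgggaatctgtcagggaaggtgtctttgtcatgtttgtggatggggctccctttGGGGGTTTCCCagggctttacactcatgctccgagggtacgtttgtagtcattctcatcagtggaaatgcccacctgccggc
The second start of CD83 has matches at 3 places, shown with 8 bases on either side, at chr6:14117630-14117655, chr6:14117688-14117715 and chr6:14117713-14117739 (plus strand). Another annotated transcript begins within this window, so that parts of the 3 stretches are also exonic.
CD83 at 134 bases before the start: cggggacgGGGGCGCCCCggcctaag
CD83 at 76 bases before the start: tgcccgccGGGGAATCCCCCgggctggc
CD83 at 51 bases before the start: ggcgcgcaGGGAAGTTCCCgaacgcgc

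The same CD83 window, in which 83.2% of the bases are G or C, also held 3 matches to the EGR motif, which 8.41% of all windows hold. The shares of all windows given here are not matched for GC content. No window of the 10 genes held the AP-1 motif (6.57% of all windows) or CRE (1.65%). NFAT letters were present in 9 of the 12 windows and in 55.6% of all windows, and the GAS motif was present before CD274 and BTLA (6.57% of all windows). A match is a description of the letters and does not show binding.

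The untreated lines were compared first. The combination of these transcripts differed between the lymphoid and monocytic lines. Jurkat had CD28, CD83, ICOS and a low level of PDCD1, BJAB had CD86, CD83 and ICOSLG, and the monocytic lines had CD83 and ICOSLG. CD274 was low in both Jurkat (2.12 and 0.0913 TPM) and THP-1 (0.473 and 0.678 TPM), which did not differ in it beyond their spread (limma adjusted p = 0.768). Of the 7 tested genes, 6 differed among the 4 untreated lines by limma's F test at an adjusted p under 0.05, and 56.3% of all tested genes did so. CD274 was the exception (adjusted p = 0.262). Between single pairs of untreated lines the share of all tested genes called was 25.9% for THP-1 and U937, 35.1% for THP-1 and Jurkat, 35.5% for THP-1 and BJAB, 32.6% for U937 and Jurkat, 33.9% for U937 and BJAB and 31.8% for Jurkat and BJAB.

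**Figure D1:**
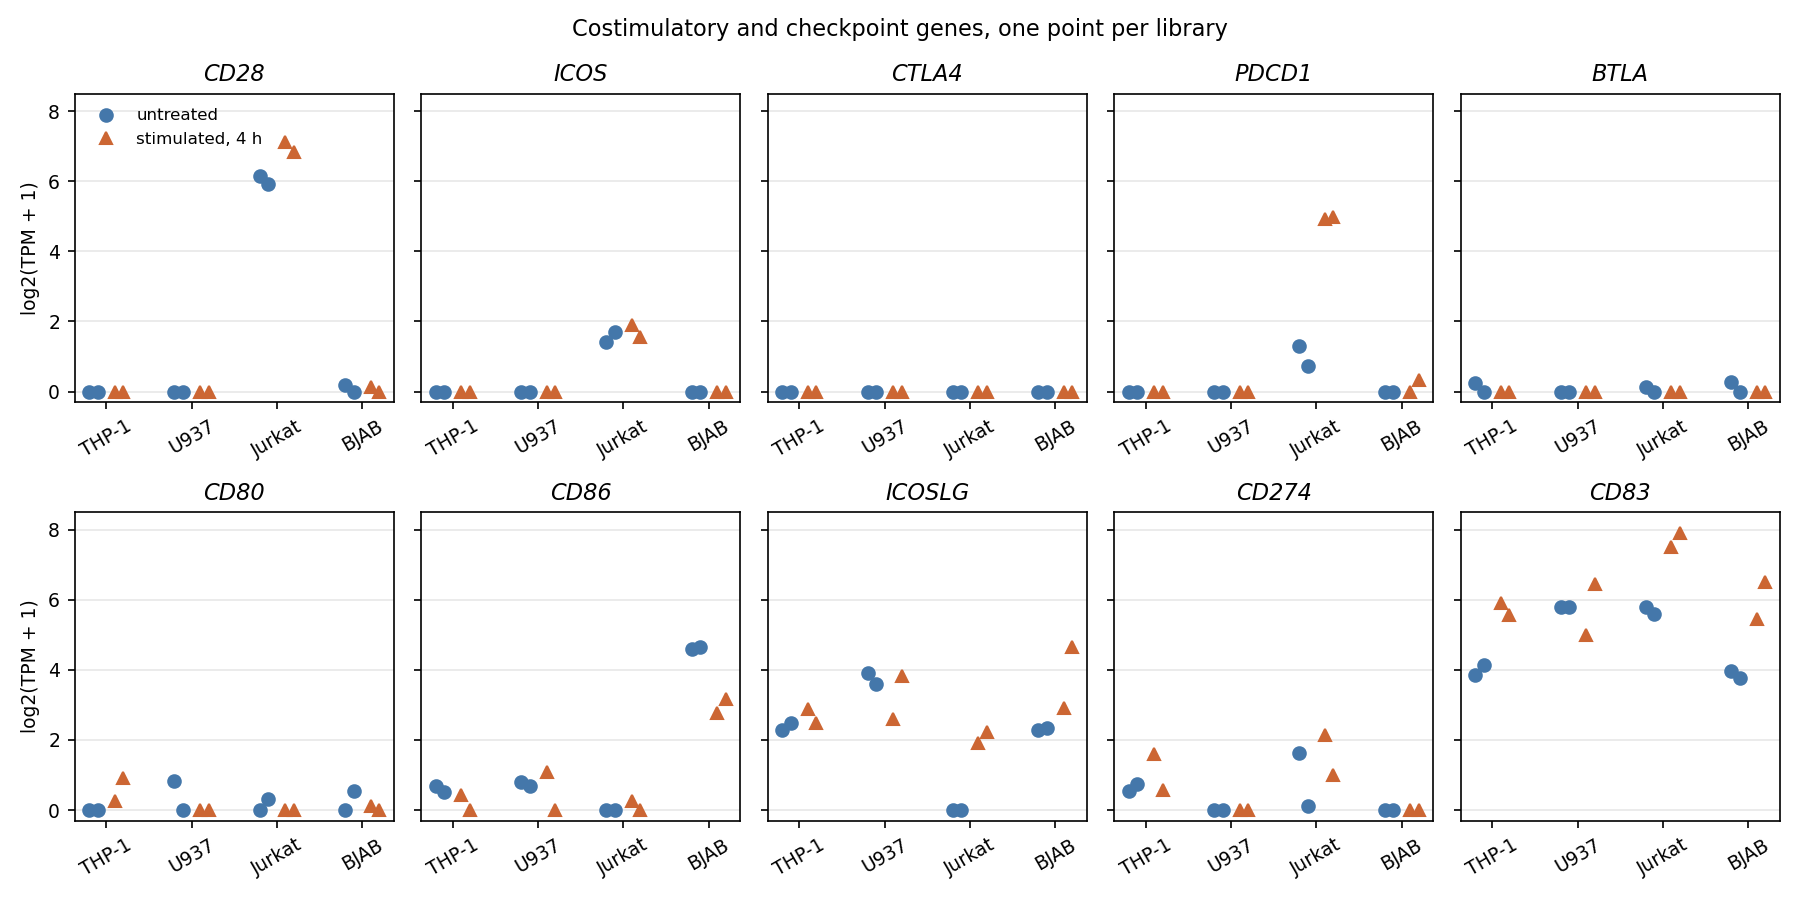
Level of each of the 10 genes in each of the 16 libraries, as log2(TPM + 1), by line and treatment, with every point 1 library. CD83 is present in every library, CD28, ICOS and PDCD1 are seen almost only in Jurkat, CD86 stands highest in BJAB, and CTLA4 is at 0 throughout.

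CD28, the main costimulatory receptor of T cells, was at 69.8 and 60.1 TPM in the untreated Jurkat libraries. It was listed at 0 in all 8 monocytic libraries and at no more than 0.14 TPM, or 2 reads, in any BJAB library. Untreated Jurkat stood above BJAB by 5.94 ± 0.18 on the log2(TPM + 1) scale (SE, n = 2 per group; limma adjusted p = 6.24e-10), on which all fitted differences below are given and which understates the change of low genes.

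Stimulated Jurkat libraries held 137 and 113 TPM of CD28, both above the untreated pair. The groups did not overlap, as was so, on the higher side, for 21% of all tested genes in Jurkat. Their means were 64.9 ± 6.88 and 125 ± 17.1 TPM (SD, n = 2). CD28 rose by 0.93 ± 0.18 (SE; limma adjusted p = 0.0102), a ratio of means of 1.92, and ranked 720 of 14398 genes by size of rise. The reads behind it numbered 2070 before and 4077 after, giving a rate ratio with an exact 95% interval of 1.81 to 2.01 for counting error only. The call was lost without the second untreated library (adjusted p = 0.0862), without the first stimulated one (0.0849), with a pseudocount of 0.1 (0.519) and by voom on the recovered reads (0.228). In these fits the change remained between 0.79 and 0.95.

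ICOS, the inducible costimulatory receptor, was seen in Jurkat libraries and in no other line. It was at 1.69 and 2.23 TPM untreated and 2.72 and 1.93 TPM stimulated, which overlapped. The change was 0.16 ± 0.15 (limma adjusted p = 0.887), from 33 and 41 reads. A count of 0 in both untreated libraries allows up to 0.157 TPM of ICOS in THP-1, 0.218 TPM in U937 and 0.186 TPM in BJAB (3 reads over the group). The difference of untreated Jurkat from BJAB was 1.56 ± 0.15 (adjusted p = 5.47e-06).

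The third gene of that chromosome 2 cluster, the inhibitory receptor CTLA4, was listed at 0 in all 16 libraries, so that the 3 neighbours CD28, ICOS and CTLA4 stood at 64.9, 1.96 and 0 TPM on average in untreated Jurkat. No limit in TPM was set for CTLA4, because the value of 1 read could not be read from a gene without any.

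PDCD1 encodes PD-1, the inhibitory receptor that activated T cells put on their surface. In Jurkat it was at 1.45 and 0.658 TPM untreated, from 11 and 4 reads, and at 29.6 and 30.4 TPM stimulated, from 209 and 214 reads. The groups did not overlap, as was so for 21% of all tested genes on the higher side, and the stimulated libraries lay close together. Means were 1.05 ± 0.56 and 30 ± 0.514 TPM (SD, n = 2), a ratio of 28.5.

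PDCD1 rose by 3.94 ± 0.19 in Jurkat (SE; limma adjusted p = 1.84e-07), ranking 35 of 14398 genes by size of rise, and moved from rank 11528 to rank 4707 by level. The ratio of read rates was 27.3, with a 95% interval of 16.4 to 49.3 for counting error only. It passed in all 27 alternative settings, with adjusted p from 9.12e-10 to 0.000373. Of all other libraries, only the second stimulated BJAB library held PDCD1 reads, namely 2 (0.255 TPM). Groups at 0 in both libraries add no spread, which narrows the pooled standard error of PDCD1. Its response was larger in Jurkat than in BJAB by 3.78 ± 0.27 (adjusted p = 1.26e-05).

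BTLA, an inhibitory receptor of T and B cells, was near the limit of detection. The first untreated library of THP-1 held 0.186 TPM, that of Jurkat 0.0866 TPM and that of BJAB 0.213 TPM, from 2, 1 and 2 reads, and the other 13 libraries held 0. No direction can be read from these counts.

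Of the ligands, CD86 was at 23.2 and 24.2 TPM in untreated BJAB. Values elsewhere were at most 1.11 TPM, and untreated BJAB stood above THP-1 (log2 difference of THP-1 from BJAB -4.02, adjusted p = 6.78e-07), U937 (-3.88, 1.15e-06) and Jurkat (-4.62, 2.31e-07). The neighbouring lines in that order did not differ from one another beyond their spread: U937 was at 0.674 TPM and THP-1 at 0.528 TPM on average (adjusted p = 0.84), and Jurkat was at 0 in both untreated libraries (adjusted p = 0.0864 against U937 and 0.152 against THP-1).

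Stimulated BJAB libraries held 5.87 and 7.93 TPM of CD86, from 67 and 86 reads, after 198 and 225 reads in the untreated ones. Both lay below both untreated values, as was so for 32.9% of all tested genes in BJAB. CD86 fell by 1.65 on the log2 scale (SE 0.30; limma adjusted p = 0.00864), with means of 23.7 ± 0.729 and 6.9 ± 1.45 TPM (SD, n = 2), 3.43-fold lower. The read rate after stimulation was 0.29 of that before, with a 95% interval of 0.24 to 0.35 for counting error only. The 10 B cell markers moved alongside, from a sum of 5310 to 5620 TPM untreated to 1420 to 3680 TPM stimulated, and their part in the fall was not tested. In bulk libraries fewer cells with a transcript and less of it per cell cannot be told apart.

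The CD86 call was lost without the first untreated library (adjusted p = 0.055), the second untreated (0.0741) or the first stimulated one (0.0753, with a log2 change of -1.47). It was also lost with a pseudocount of 0.1 (0.314), quantile normalization (0.121), voom (0.15) and a fit of the BJAB libraries alone (0.268). The sign was negative in all 27 settings.

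CD80, the other ligand of CD28 and CTLA4, had few reads. The largest values were 0.875 TPM in the second LPS library of THP-1 (8 reads), 0.775 TPM in the first untreated U937 library and 0.456 TPM in the second untreated BJAB library (4 reads each). THP-1 held 0 in both untreated libraries and 0.19 TPM in the first LPS library. Its mean after LPS was 3.53 times the limit of 3 reads over the untreated pair. The exact interval of the rate ratio, for counting error only, began at 2.27. CD80 shares exonic sequence with TIMMDC1 on the opposite strand, which stood at 128 to 328 TPM in all 16 libraries. Whether counting used strand is not given in the sources used here, so these reads cannot be assigned firmly.

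ICOSLG, the ligand of ICOS on antigen presenting cells, was highest in untreated U937 at 14 and 11.2 TPM. THP-1 followed at 3.89 and 4.64 TPM and BJAB at 3.84 and 4.08 TPM, and Jurkat held no read. U937 differed from BJAB (1.45 ± 0.50, limma adjusted p = 0.0431) and not beyond the spread from THP-1 (adjusted p = 0.0679). THP-1 and BJAB did not differ beyond their spread (0.08 ± 0.50, adjusted p = 0.944), and Jurkat lay below BJAB (log2 difference -2.31, adjusted p = 0.0036).

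After stimulation Jurkat held 2.74 and 3.71 TPM of ICOSLG, from 31 and 42 reads. Their mean was 23.6 times the 0.137 TPM that 3 reads over the untreated pair allow. The exact interval of the rate ratio, for counting error only, began at 18.7. ICOSLG rose by 2.07 ± 0.50 in Jurkat (limma adjusted p = 0.0356), 187th of 14398 by rank. This call was the least firm of those in Jurkat: it was lost in 14 of 27 settings, among them leaving out any 1 of the Jurkat libraries (adjusted p 0.139 to 0.26) and a pseudocount of 5 (0.418). Its standard error is pooled with the other lines, whose libraries are given next.

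Stimulated BJAB libraries held 6.58 and 23.9 TPM of ICOSLG, from 87 and 301 reads. Both lay above the untreated pair, as in 14.2% of all tested genes, but far apart. The change of 1.47 ± 0.50 (limma adjusted p = 0.105) did not pass. Without the first stimulated library it was 2.33 (adjusted p = 0.017) and without the second 0.61 (0.35), and it passed with median-of-ratios scaling (1.76, 0.012) and quantile normalization (1.84, 0.00348). ICOSLG belongs to the fifth of genes with the highest GC content, in which the first stimulated BJAB library differed from the second by a median of -0.77 on the log2 scale. The part of GC content in the result was not tested.

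In U937, LPS libraries held 5.03 and 13.1 TPM of ICOSLG, on either side of part of the untreated range. The log2 change of -0.55 ± 0.50 did not pass (limma adjusted p = 0.544), and without the first LPS library it was 0.06. THP-1 held 6.41 and 4.63 TPM after LPS, which overlapped its untreated pair (0.30 ± 0.50, adjusted p = 1).

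CD274 encodes PD-L1, the ligand of PD-1. THP-1 held 0.473 and 0.678 TPM untreated and 2.06 and 0.476 TPM after LPS, so that 1 LPS library was high and the other was within the untreated range. In Jurkat the values were 2.12 and 0.0913 TPM untreated and 3.38 and 1.02 TPM stimulated, which overlapped. U937 and BJAB libraries held 0. The changes were 0.44 ± 0.47 in THP-1 (limma adjusted p = 1) and 0.69 ± 0.47 in Jurkat (adjusted p = 0.72). Its sign turned in THP-1 without the first LPS library (-0.09) and in Jurkat without the second untreated one (-0.07).

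CD83 was the only one of the 10 genes with reads in every library of all 4 lines. Untreated U937 held 54.5 and 54.7 TPM, Jurkat 54.9 and 47.5 TPM, THP-1 13.4 and 16.7 TPM, and BJAB 14.6 and 12.5 TPM. These formed a higher and a lower pair of lines. U937 and Jurkat did not differ beyond their spread (0.09 ± 0.44, limma adjusted p = 0.932), nor did THP-1 and BJAB (0.14 ± 0.44, adjusted p = 0.868), whereas Jurkat stood above BJAB by 1.84 (adjusted p = 0.00702) and U937 above BJAB by 1.94 (adjusted p = 0.005).

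Jurkat held 181 and 239 TPM of CD83 after anti-CD3 and PMA. Both values lay above both untreated ones, as in 21% of all tested genes. The means of 51.2 ± 5.2 and 210 ± 40.7 TPM (SD, n = 2) gave a ratio of 4.11. CD83 rose by 2.01 ± 0.44 in Jurkat (limma adjusted p = 0.0223). Leaving out any 1 of the 4 Jurkat libraries lost the call (adjusted p 0.0901 to 0.201), with changes of 1.81 to 2.20.

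BJAB held 43 and 89.5 TPM of CD83 after anti-IgM and anti-CD40. Both lay above its untreated pair, as was so for 14.2% of all tested genes. Means were 13.6 ± 1.54 and 66.2 ± 32.9 TPM (SD, n = 2), a ratio of 4.89. CD83 rose by 2.12 ± 0.44 in BJAB (limma adjusted p = 0.0166) and ranked 69 of 14398 by size of rise. The call was lost without the first untreated library (adjusted p = 0.0818), without the second (0.134) and in a fit of BJAB alone (0.283), and it held without the first stimulated library.

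THP-1 held 59.5 and 46.6 TPM of CD83 after LPS, above both untreated libraries, as in 12.2% of all tested genes. Means were 15.1 ± 2.29 and 53.1 ± 9.07 TPM (SD, n = 2), a ratio of 3.53. The change of 1.75 ± 0.44 ranked 26 of 14398 by size of rise in THP-1, and it did not pass (limma adjusted p = 0.322, unadjusted p = 0.00219). It passed in 4 of 27 settings: a fit of the THP-1 libraries alone (adjusted p = 0.0159), median-of-ratios scaling (0.0265), quantile normalization (0.0138), and a fit in which U937 and BJAB each kept just their second stimulated library (0.00374). The spread pooled over groups includes the wide CD83 pairs of U937 and BJAB.

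U937 held 30.9 and 85.9 TPM of CD83 after LPS, on either side of its untreated pair. The change of -0.08 ± 0.44 (limma adjusted p = 1) turned to 0.65 without the first LPS library, 0.40 with median-of-ratios scaling, 0.38 with quantile normalization and 0.16 by voom. The response was larger in THP-1 than in U937 by 1.83 ± 0.63, which did not pass (adjusted p = 0.706), in a comparison where 0.0486% of all genes were called. Without the second LPS library of U937 the difference was 2.55, in a fit that kept just the lower of the 2 LPS libraries. It passed in no setting that kept both. The responses of Jurkat and BJAB differed by -0.11 ± 0.63 (adjusted p = 0.979).

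**Figure D2:**
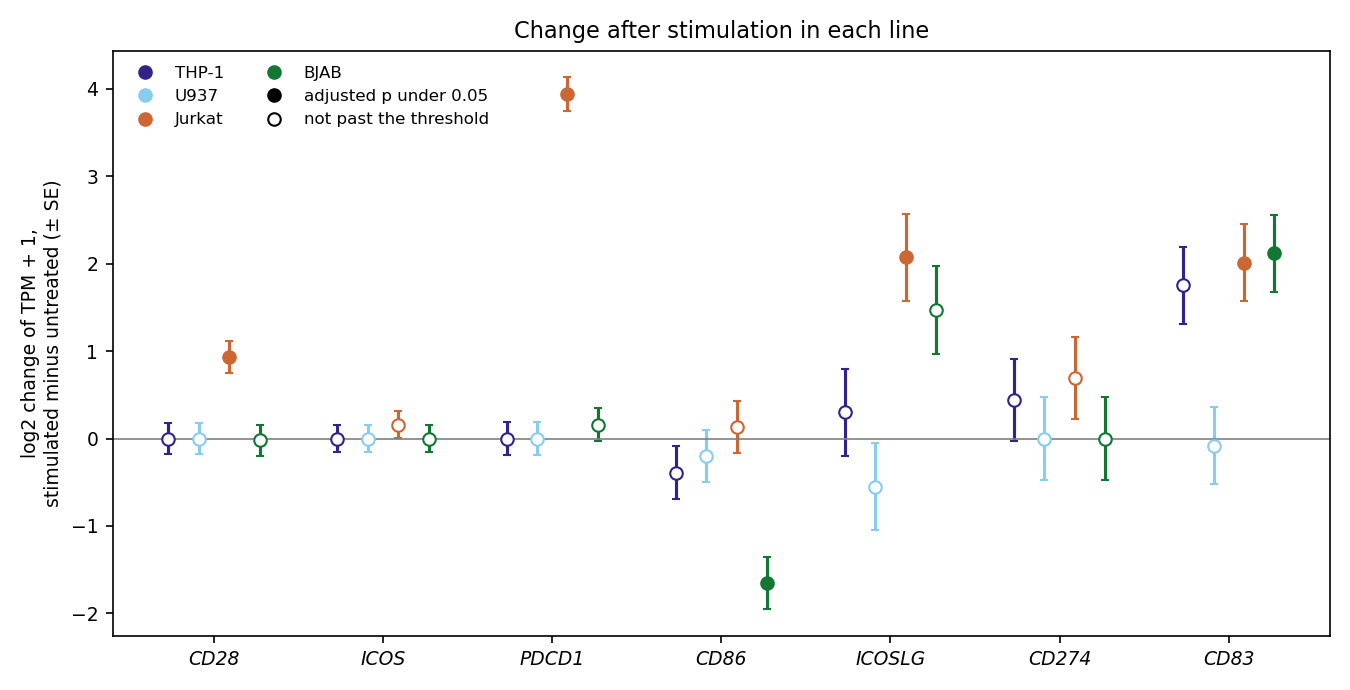
Fitted log2 change of each tested gene after stimulation in each line, with its standard error, from the limma fit of all 16 libraries. Jurkat shows PDCD1 at 3.94, ICOSLG at 2.07, CD83 at 2.01 and CD28 at 0.93, and BJAB shows CD83 at 2.12 and CD86 at -1.65.

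By line, 4 of the 7 tested genes rose in Jurkat (CD28, ICOSLG, CD83 and PDCD1) and none fell, where 4.87% of all tested genes were called, 3.02% higher and 1.85% lower. In BJAB 1 rose (CD83) and 1 fell (CD86), where 6.4% were called, 1.63% higher and 4.76% lower. In THP-1 limma called 0 of 7, where 0.167% of all genes were called, and 1 (CD83) had an unadjusted p under 0.05, as did 3.63% of all genes. In U937 limma called 0 of 7, where 0.0278% of all genes were called, and 0 had an unadjusted p under 0.05, as did 15.1% of all genes. By voom on the recovered reads the count was 0 in both monocytic lines. The median log2 change of all tested genes was -0.06 in THP-1, -0.25 in U937, -0.03 in Jurkat and -0.14 in BJAB. The response differed among the 4 lines for 1 of the 7, PDCD1 (limma F test, adjusted p = 1.09e-05), against 4.79% of all genes.

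The fitted change of CD86 also differed between Jurkat and BJAB (log2 difference 1.79 ± 0.43, limma adjusted p = 0.0341), where 5.24% of all genes were called. Both untreated Jurkat libraries held 0 reads of CD86, so no fall could be seen there and the difference restates the fall in BJAB. It was lost in 16 of 26 settings (adjusted p up to 0.449), in 11 of them by leaving out a single library, any untreated one among them. CD28, at 0.95 ± 0.25, did not pass (adjusted p = 0.0567) and passed in 5 settings.

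**Figure D3:**
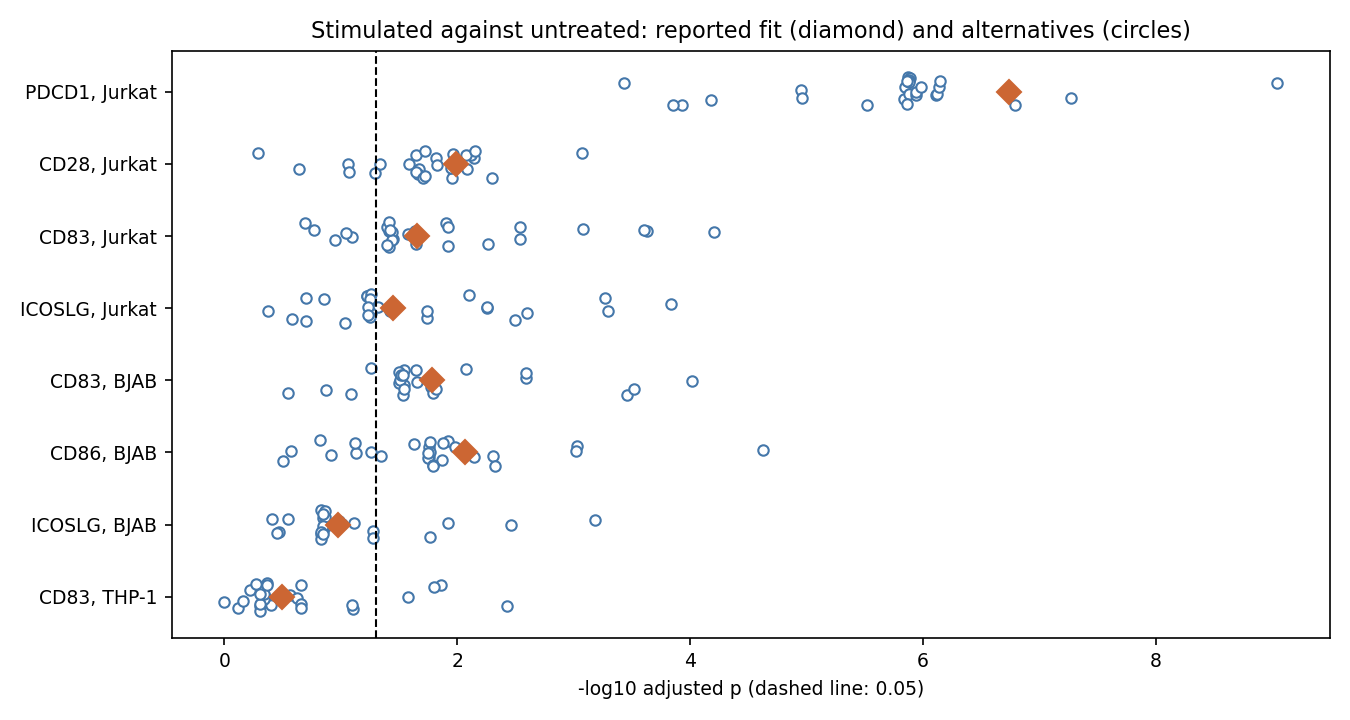
Negative log10 of the adjusted p of 8 results on these genes under each alternative setting, 1 point per setting, with a line at the threshold of 0.05. PDCD1 in Jurkat lies past the threshold in all 27 settings, whereas CD83, CD28, ICOSLG and CD86 have points on both sides.

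Other genes of these pathways were read from 8 lists, with 90 distinct genes tested. In Jurkat 13 rose and 4 fell, where 3.02% of all tested genes were called higher and 1.85% lower. In BJAB 2 rose and 4 fell, near the shares of all tested genes, 1.63% higher and 4.76% lower. In THP-1 and U937 limma called 0, with 4 and 16 at an unadjusted p under 0.05, shares near those of all genes (3.63% and 15.1%). The shares of all genes called also belong beside the counts of each list below. The lists were chosen with earlier results of these data known, so their counts are descriptions.

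Of 6 partners of BTLA and its ligand HVEM, 3 rose in Jurkat, with a list median of 1.16. TNFSF14 (LIGHT), a ligand of HVEM, was at 0 in both untreated libraries and at 7.89 and 6.83 TPM stimulated (limma adjusted p = 3.69e-06). LTB, the membrane subunit of lymphotoxin, was at 1.64 and 1.6 TPM and then at 50.3 and 76.5 TPM, and rose by 4.59 ± 0.25 (adjusted p = 5.81e-07). Both calls held in all 27 settings. LTA, the soluble lymphotoxin subunit, went from 0.57 and 0.433 to 3.33 and 4.51 TPM (adjusted p = 0.00339), a call lost without the second stimulated library (0.0535). LTA lies under the level set for naming and was named after its values were seen, as were BTN1A1 and HAVCR2 in the next paragraphs.

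Of 8 TNF family costimulators tested, 3 rose in Jurkat, with a median of 0.96. The receptor TNFRSF4 (OX40) was at 9.58 and 10.1 TPM and then at 70.2 and 92.8 TPM, a rise of 2.92 ± 0.22 (limma adjusted p = 6.21e-06). CD70, the ligand of CD27, went from 0.912 and 0.632 to 6 and 4.25 TPM (adjusted p = 0.00413), and CD40LG, the T cell ligand of CD40, from 33.4 and 42.1 to 71.7 and 63.7 TPM (adjusted p = 0.0131). In BJAB TNFRSF18 (GITR) fell from 102 and 134 to 4.91 and 43.8 TPM, a change of -2.86 ± 0.68 (adjusted p = 0.0319). Without the first stimulated library the change was -1.40 (adjusted p = 0.0895) and without the second -4.32, and the call was lost in 13 of 27 settings.

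Of the other B7 and CD28 family, 11 were tested. In Jurkat 1 fell, with a list median of -0.49: the butyrophilin BTN1A1 was at 1.27 and 1.46 TPM and then at 0 and 0.21 TPM (adjusted p = 0.000219). In BJAB 1 fell, with a median of -0.40. It was VSIR (VISTA), an inhibitory B7 family protein, which went from 11.1 and 9.61 to 0.107 and 0.903 TPM (limma adjusted p = 0.00465). PDCD1LG2, the second ligand of PD-1 and the neighbour of CD274, was at most 0.496 TPM in THP-1 and at 0 in the other lines.

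Among 14 other checkpoints and adhesion coreceptors, 2 rose and 1 fell in Jurkat. CD2, an adhesion receptor of T cells, went from 248 and 219 to 436 and 429 TPM (limma adjusted p = 0.0169), HAVCR2 (TIM-3), an inhibitory receptor, from 0 and 0.572 to 4.93 and 3.33 TPM (adjusted p = 0.0131), and the inhibitory collagen receptor LAIR1 fell from 67.1 and 51.8 to 14.6 and 17.5 TPM (adjusted p = 0.00798). In BJAB CD58, the ligand of CD2, rose from 12.1 and 12.1 to 51.4 and 35.3 TPM (adjusted p = 0.00626).

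Among 13 genes of CD28 signalling, 1 rose and 1 fell in Jurkat, with a list median of 0.09. BCL10, an adaptor that links the receptor to NF-kB, went from 30 and 31.2 to 63.2 and 62 TPM (limma adjusted p = 0.0458), and the adaptor GRAP2 fell from 46 and 56.7 to 13.3 and 20.9 TPM (adjusted p = 0.0151). In BJAB limma called 0 of the 13, with 5 at an unadjusted p under 0.05, where 24.2% of all genes were, and a list median of -0.28.

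Among 8 genes of PD-1, CTLA-4 and BTLA signalling, 1 fell in either lymphoid line. In Jurkat it was SH2D1A, the adaptor SAP, from 286 and 246 to 66.2 and 81.8 TPM, a change of -1.84 ± 0.18 (limma adjusted p = 6.93e-05) that held in all 27 settings. In BJAB it was CSK, a kinase that restrains SRC family kinases, from 326 and 349 to 35.6 and 147 TPM, a change of -2.20 ± 0.49 (adjusted p = 0.0216), with -1.20 without the first stimulated library and -3.21 without the second. The list medians were -0.62 and -0.72. Of 12 genes for trafficking and turnover of these surface proteins, limma called 0 in each line, with 2 in U937 and 3 in BJAB at an unadjusted p under 0.05 and 0 in THP-1 and Jurkat, against 15.1%, 24.2%, 3.63% and 13.1% of all genes in that order.

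Among 18 tested regulators of transcripts of this kind, 4 rose in Jurkat, with a list median of 0.60. NR4A1, an early response nuclear receptor, went from 2.54 and 2.82 to 151 and 171 TPM (limma adjusted p = 9.77e-05) and FOS, a subunit of AP-1, from 1.55 and 0.322 to 19.3 and 20.4 TPM (adjusted p = 0.0018). The NF-kB subunits NFKB1 (11.8 and 10.7, then 47.8 and 53.8 TPM, adjusted p = 0.00206) and REL (5.33 and 5.59, then 19.3 and 18.8 TPM, adjusted p = 0.00215) rose as well, and these 4 calls held in all 27 settings. In BJAB NFKB1 rose from 5.18 and 4.47 to 29.4 and 15.2 TPM (adjusted p = 0.00479) and REL fell from 7.99 and 11.2 to 2.75 and 4.03 TPM (adjusted p = 0.0135, and 0.0934 without the first stimulated library).

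Several of these list calls rested on single libraries of the line, and the highest adjusted p on leaving 1 out is given here. Without the first untreated Jurkat library it was 0.111 for CD40LG, 0.0976 for LAIR1, 0.254 for BCL10 and 0.158 for HAVCR2. Without the second it was 0.13 for CD2, and without the first stimulated one 0.0648 for CD70 and 0.163 for GRAP2. BCL10 was lost in 16 of 27 settings and CD2 in 7, the remaining Jurkat calls named here in at most 5. Without the second untreated BJAB library it was 0.205 for TNFRSF18, 0.146 for CSK, 0.145 for REL, 0.0606 for CD58 and 0.0593 for NFKB1. In a fit of BJAB alone all 6 BJAB calls were lost (adjusted p 0.203 to 0.359).

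**Figure D4:**
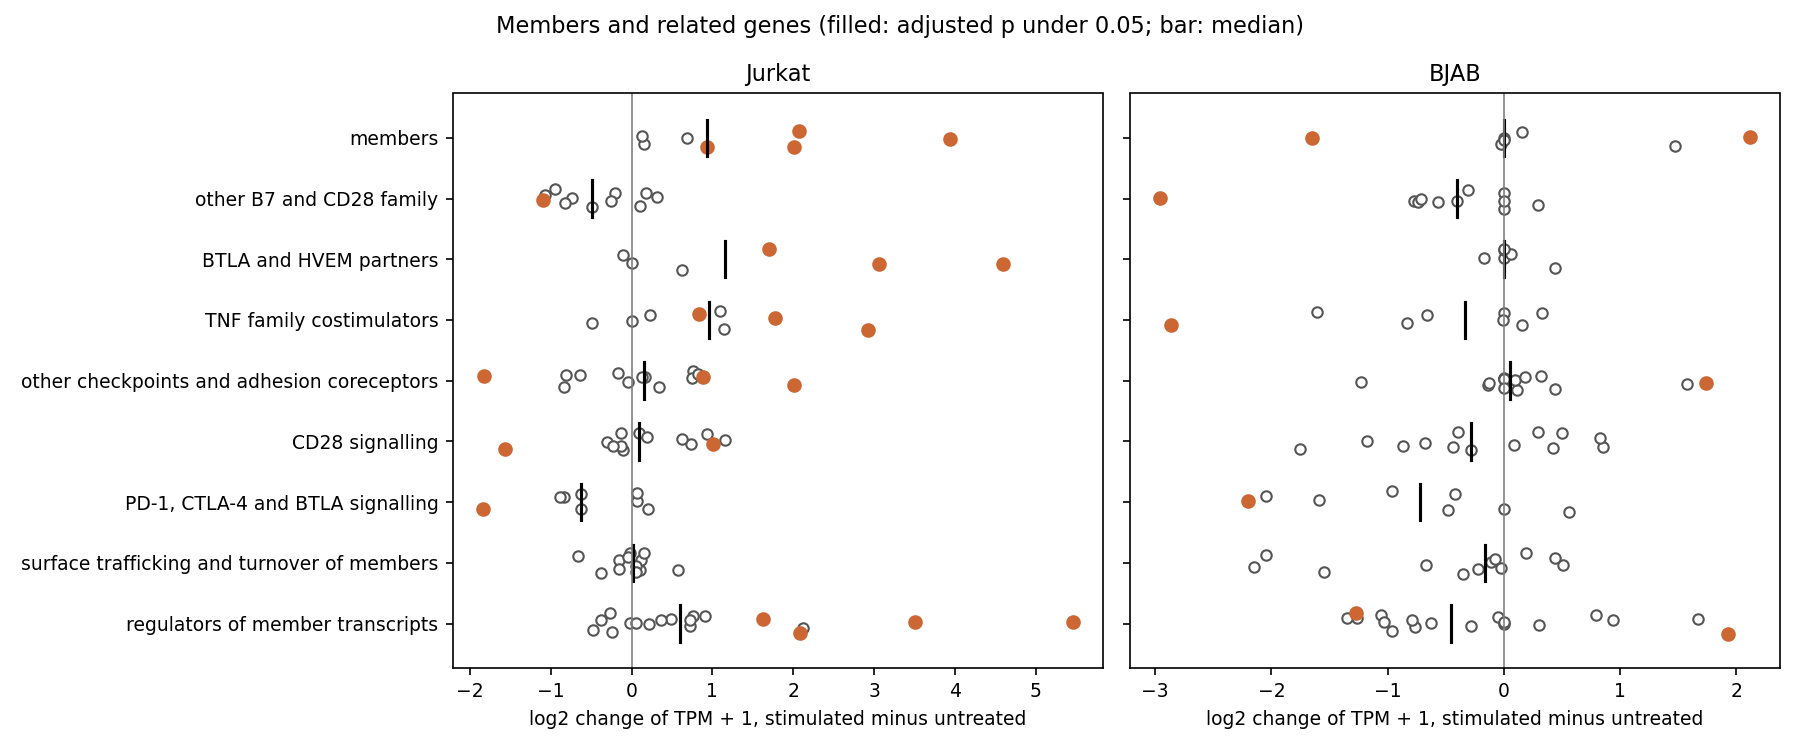
Fitted log2 change in Jurkat and in BJAB for the tested genes of this set and for the tested genes of 8 related lists, 1 point per gene. In Jurkat the lists of BTLA and HVEM partners and of TNF family costimulators have the highest medians, 1.16 and 0.96.

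The genes whose levels most resembled these were sought among 11422 genes by Pearson r of log2(TPM + 1) over the 16 libraries, which share lines and depth, so r is a description. CD83 was most like NFKB1 (r = 0.900), followed by NAB1 (0.871) and KIF3B (0.825). NFKB1 was at 7.78 and 5.09 TPM in untreated THP-1 and 19.1 and 17.7 TPM after LPS, and at 12.4 and 15.5 TPM in untreated U937 and 12.9 and 18 TPM after LPS. Its values in Jurkat and BJAB are given above, so that NFKB1, like CD83, was higher in both stimulated libraries than in both untreated ones in THP-1, Jurkat and BJAB and not in U937. Of all tested genes, 12.2% were higher in this way in THP-1, 21% in Jurkat and 14.2% in BJAB.

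PDCD1 was most like SH3RF2 (r = 0.997), IL2RA (0.990), which encodes the interleukin 2 receptor chain CD25, and SHC4 (0.988). IL2RA was at 1.04 and 0 TPM in untreated Jurkat and 54.6 and 57.4 TPM in stimulated Jurkat. CD28 was most like TUSC3, FXYD2 and CD40LG (r of 0.999 or more), which also separate Jurkat from the other lines. CD86 was most like OSBPL10 (r = 0.981), at 55.7 and 48.3 TPM in untreated BJAB and 8.58 and 14.8 TPM after stimulation, then ENDOU (0.980) and ZNF826P (0.977). ICOSLG was most like ETV5 (r = 0.926), NEU1 (0.919) and CYP51A1 (0.861).

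**Figure D5:**
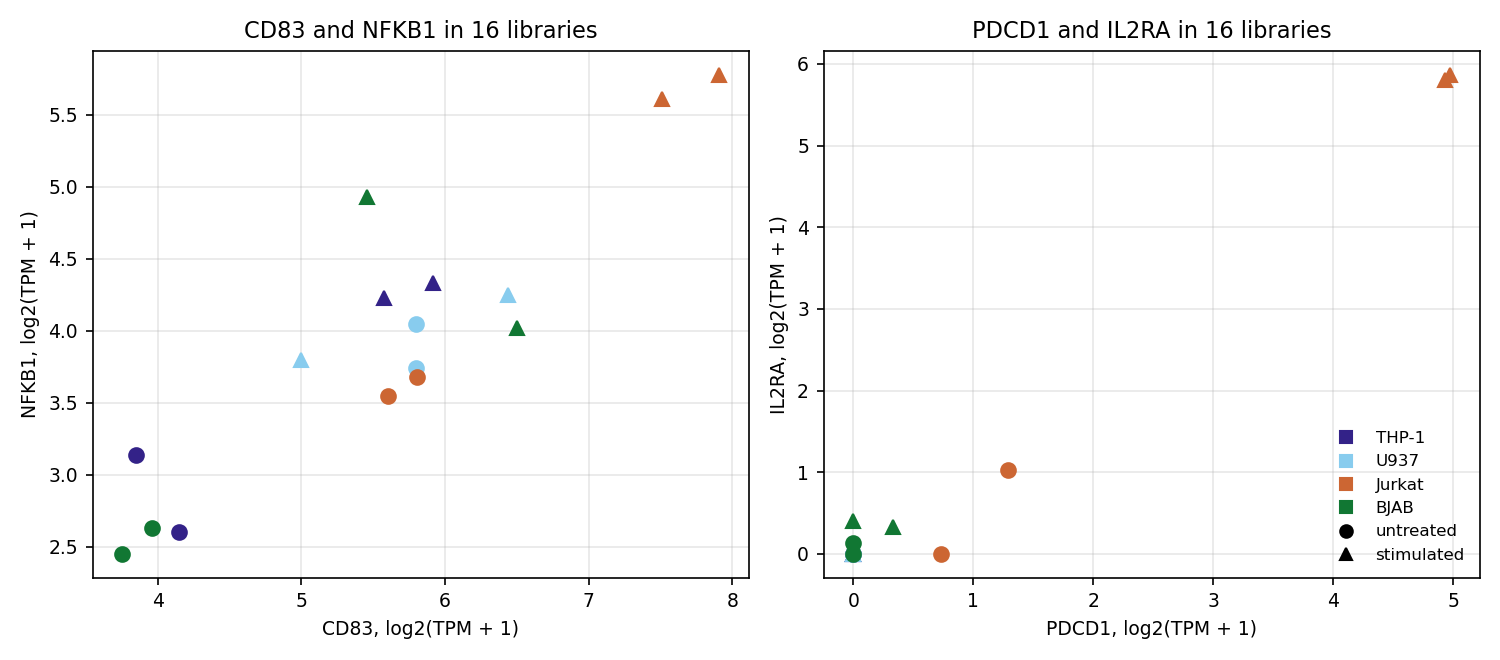
Levels of CD83 against NFKB1 and of PDCD1 against IL2RA over the 16 libraries, as log2(TPM + 1), with points marked by line and treatment. The first pair follows r = 0.900 over all lines, while the second pair, r = 0.990, rests on the separation of the 2 stimulated Jurkat libraries from the rest.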

How the data were processed

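RNA libraries were made with SmartSeq2 (oligo-dT primed), per the labels' protocols. The authors deposited TPM values per gene, which sum to 1000000 in each library. TopHat2 and the genome build hg19 are named in the submitters' processing notes. The program that counted reads, its annotation and its strand setting were not given in the sources used here. Whole reads were recovered from the TPM steps (tolerance 0.001 of a read) for 17860 of 19092 genes above 0 (93.5%).

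Tests were run in limma 3.58.1 (R 4.3.3) on log2(TPM + 1), with a pseudocount of 1, for genes with at least 1 TPM in at least 2 libraries, with 8 groups of 2 libraries in 1 fit, a mean-variance trend and Benjamini-Hochberg adjustment over 14398 genes at 0.05. On simulated reads with known changes in Jurkat, this fit called more unchanged genes than a false discovery rate of 0.05 would give. Calls with an adjusted p near 0.05 are therefore uncertain. The fit had 8 residual degrees of freedom. Spread was pooled over groups, and a group at 0 in both libraries adds none. This narrows the standard errors of genes absent from whole groups, such as CD28, ICOS, PDCD1, TNFSF14, BTN1A1 and NEU4. Nothing says that the 2 libraries of a group came from separate cultures, so p-values measure the spread between these libraries, which may be technical. Where a library was left out, its group's remaining library was taken to vary as much as libraries elsewhere do. Intervals and the limit of 3 reads cover counting error only, and reads of a library without molecular identifiers are not independent molecules.

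The 10 genes, related lists and tests were chosen with earlier results of these data known. All 10 genes are named. From the lists 1 gene is not reported here and is left out of their counts. From each list and stimulation, up to 4 called genes with the largest change were named if the stimulated and untreated values did not overlap and the higher group averaged at least 5 TPM. For genes most like a member, the 3 highest correlations were named. Alternatives covered the pseudocount, the filter, scaling, the trend, voom on recovered reads, a replicate block, a fit of 1 line alone, and leaving out each library. Promoter sequences are from RefSeq (GRCh38.p14), and exons from GENCODE on GRCh38.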

Additional observations from a re-analysis of the deposited data

Results flagged for a closer look

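The response of PDCD1 differed among the 4 lines by a direct test of that difference (limma F test, adjusted p = 1.09e-05). Between Jurkat and BJAB its response differed by 3.78 ± 0.27 on the log2 scale (SE; adjusted p = 1.26e-05), with stimulated values of 29.6 and 30.4 TPM in Jurkat and 0 and 0.255 TPM in BJAB. The response of CD86 differed between the same lines by 1.79 ± 0.43 (limma adjusted p = 0.0341), with a fall in both stimulated BJAB libraries and no more than 0.205 TPM in any Jurkat library. Untreated Jurkat held no read of CD86, so no fall could be seen there and the difference restates the fall in BJAB. This call was lost in 16 of 26 settings. Line and stimulus cannot be told apart in these differences.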

How the results depend on the processing

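The number of these genes called among the untreated lines stayed between 5 and 7 around the reported 6 in all 27 settings, and the 0 called in U937 stayed 0. In THP-1 the count went from 0 to 1 (CD83) with median-of-ratios scaling, quantile normalization, only the second stimulated library kept in U937 and in BJAB, and the THP-1 libraries alone. In Jurkat the count of 4 ranged from 1 to 4 when single libraries were left out. In BJAB the count of 2 was 1 with a pseudocount of 0.1 and 1 by voom, 0 with the BJAB libraries alone, 3 (with ICOSLG) with median-of-ratios scaling and with only the second stimulated library kept in U937 and in BJAB, and 0 to 2 when single libraries were left out. The count of genes whose response differed among the lines went from 1 to 2 with a pseudocount of 0.1, 3 with a pseudocount of 5, 2 with median-of-ratios scaling, 3 with quantile normalization and 2 by voom. In these settings 373 (pseudocount of 0.1) to 957 (pseudocount of 5) of all tested genes were called, against 689 in the reported fit. The count was also higher in fits that left out a stimulated library of U937 or BJAB, where 1 library stood for the group. The cause was not tested.

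Signs turned in 5 results, none of them past the threshold. ICOSLG in U937 went from -0.55 to 0.01 with quantile normalization and 0.06 with those second libraries only (-1.17 to 0.06 when single libraries were left out). CD83 in U937 went from -0.08 to 0.40 with median-of-ratios scaling, 0.38 with quantile normalization, 0.16 by voom and 0.65 with those second libraries only (-0.80 to 0.65). Leaving out single libraries gave -0.09 to 0.96 for CD274 in THP-1, -0.07 to 1.45 for CD274 in Jurkat and -0.01 to 0.34 for ICOS in Jurkat.

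Deviations of untreated and stimulated libraries sharing a replicate number correlated at 0.012 in THP-1, -0.0421 in U937, 0.0174 in Jurkat and 0.142 in BJAB. These values do not decide whether such libraries were paired, because a low correlation is also what weak pairing gives. With the replicate number as a block, the count was 1 in Jurkat (PDCD1) and 1 in BJAB (CD86), with adjusted p of 0.0504 for CD28, 0.0919 for ICOSLG and 0.0796 for CD83 in Jurkat and 0.0555 for CD83 in BJAB. Among the related and neighbouring genes the block also ended the calls of CD40LG (0.0941), LAIR1 (0.051), CD2 (0.102), BCL10 (0.14) and JARID2 (0.082) in Jurkat and REL (0.054) in BJAB, and the CD86 difference between Jurkat and BJAB (0.0554). At this depth CTLA4 had 0 reads and no library held more than 2 reads of BTLA or 8 of CD80.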

Other observations

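Protein-coding genes next to the 10 genes in RefSeq order were read as well. Of 16 such neighbours, 15 were in the files and 7 were tested. TIMMDC1, ADPRH, PLGRKT and ATG3 were called in no line. The calls below are in Jurkat, where 3.02% of all tested genes were called higher. NEU4, a sialidase gene next to PDCD1, was at 0 in both untreated Jurkat libraries and at 8.39 and 7.31 TPM in both stimulated ones (limma adjusted p = 2.34e-06, called in 25 of 25 settings), and at no more than 0.437 TPM in any library of the other lines. JARID2, a Polycomb-associated gene next to CD83, was at 44.4 and 49.2 TPM in untreated Jurkat and 129 and 102 TPM in stimulated Jurkat, a rise of 1.28 ± 0.31 (limma adjusted p = 0.0345, lost in 14 of 27 settings, with 0.259 without the first stimulated Jurkat library). In THP-1 (-0.22 ± 0.31) and BJAB (-0.05 ± 0.31, at levels of at most 0.784 TPM) JARID2 did not pass, while CD83 was higher in both stimulated libraries of either line. ILDR1, next to CD86, was at 3.79 and 4.46 TPM in untreated BJAB, at 0.177 and 2.61 TPM after stimulation, and at 0 in all libraries of the other lines. Its change in BJAB of -1.31 ± 0.36 did not pass (limma adjusted p = 0.0567), and the stimulated libraries lay far apart.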
